A study of Danio rerio with 12 samples.

Results

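Genes for the contacts that hold epithelial cells together were followed in the regenerating caudal fin of the zebrafish. The 43 genes studied were the rows of the polyA+ mRNA table, of 16951 in all, whose Ensembl zebrafish name begins with cldn (claudins), tjp (tight junction proteins), ocln (occludins), marveld, dsc2, dsg2, pkp (plakophilins), evpl or perp, or is epcam. The choice was made by name and not by a measured value, but with earlier results of these data known. By their known place they were split into 32 tight junction genes, 9 desmosome genes and 2 others, epcam and PKP4. The name table held 67 genes whose names fit. The identifiers of the other 24, cdh1 among them, matched no row of the mRNA table. Only 13664 of the 16951 rows had a name. A gene without a match may therefore have been counted in an unnamed row, as ppl was (given below). No row bore the names jupa, jupb, dspa, dspb or ppl, which the rule also sought, in the name table.

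Both groups were caudal fins from adult Ekkwill zebrafish that carried no transgene or drug treatment in the labels. Fins were cut with scalpels under anesthesia, and tissue was taken at 0 days post-amputation (dpa) or at 4 dpa. Each day had 3 mRNA libraries, each made from several fins pooled, so a difference between libraries is a difference between pools. How much stump tissue the 4 dpa samples held is not given in the sources used here.

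Tight junctions seal the gap between neighbouring epithelial cells. Claudins polymerise into the strands of the seal and set which ions and molecules pass, occludin and tricellulin (MARVELD2) add to the strands and to the points where cells meet, and the zonula occludens scaffolds encoded by tjp genes tie them to actin. Desmosomes are spot welds: desmocollins and desmogleins bind across the gap, plakoglobin and plakophilins form the plaque, and desmoplakin anchors it to keratin. The fin is covered by a stratified epidermis, which after amputation spreads over the wound and thickens into a cap above the blastema, the dividing tissue that rebuilds the fin.

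The libraries held 17928712 to 25223147 reads, so that 1 read was worth 0.0369 to 0.0529 CPM (the unit of all levels given here: read counts scaled to library sizes that the authors adjusted). CPM does not correct for transcript length, so levels are compared between days for a gene and not between genes. In bulk tissue, fewer cells of a type and less RNA per cell cannot be told apart. Epidermal markers were abundant on both days, with summed levels of 45334 to 52979 CPM at 0 dpa and 29639 to 35242 CPM at 4 dpa. Most of this sum was krt5, with means of 37481 CPM at 0 dpa and 23499 CPM at 4 dpa. The summed CPM of all genes was itself 1.24-fold higher at 0 dpa. Of the 6 epidermal genes, krt4, krt5 and ITGB4 fell, krt8 and krt18b rose and TP63 did not pass the test. Of the other marker genes found, 2 of 2 for ionocytes and 4 of 6 for myeloid cells fell, and 2 of 3 for osteoblasts rose. Over all genes 31.2% fell and 31% rose. The ionocyte list held 5 names, and those found, TRPV6 and GCM2, had means of 6.66 and 1.47 CPM at 0 dpa. Several of the myeloid rows were MPEG1. The part of these shifts in the results was not tested.

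A gene was called changed when its adjusted p from limma was under 0.05. Over all genes, 62.1% were called, 31.2% lower and 31% higher at 4 dpa, with a median log2 fold-change of −0.0049. Of the 43 junction genes, 22 fell, 4 rose and 17 did not pass, with a median of −0.53. Each of the 43 had a mean of at least 1 CPM. Of the 32 tight junction genes, 20 fell and 3 rose, with a median of −0.66 and a range from −1.56 to 2.44. Of the 9 desmosome genes, 2 fell, 1 rose and 6 did not pass, with a median of −0.17. No test was made between the classes, because genes of a class are not replicates. Log2 fold-changes are differences of log2(CPM + 1), and understate the change of genes with few reads.

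**Figure D1:**
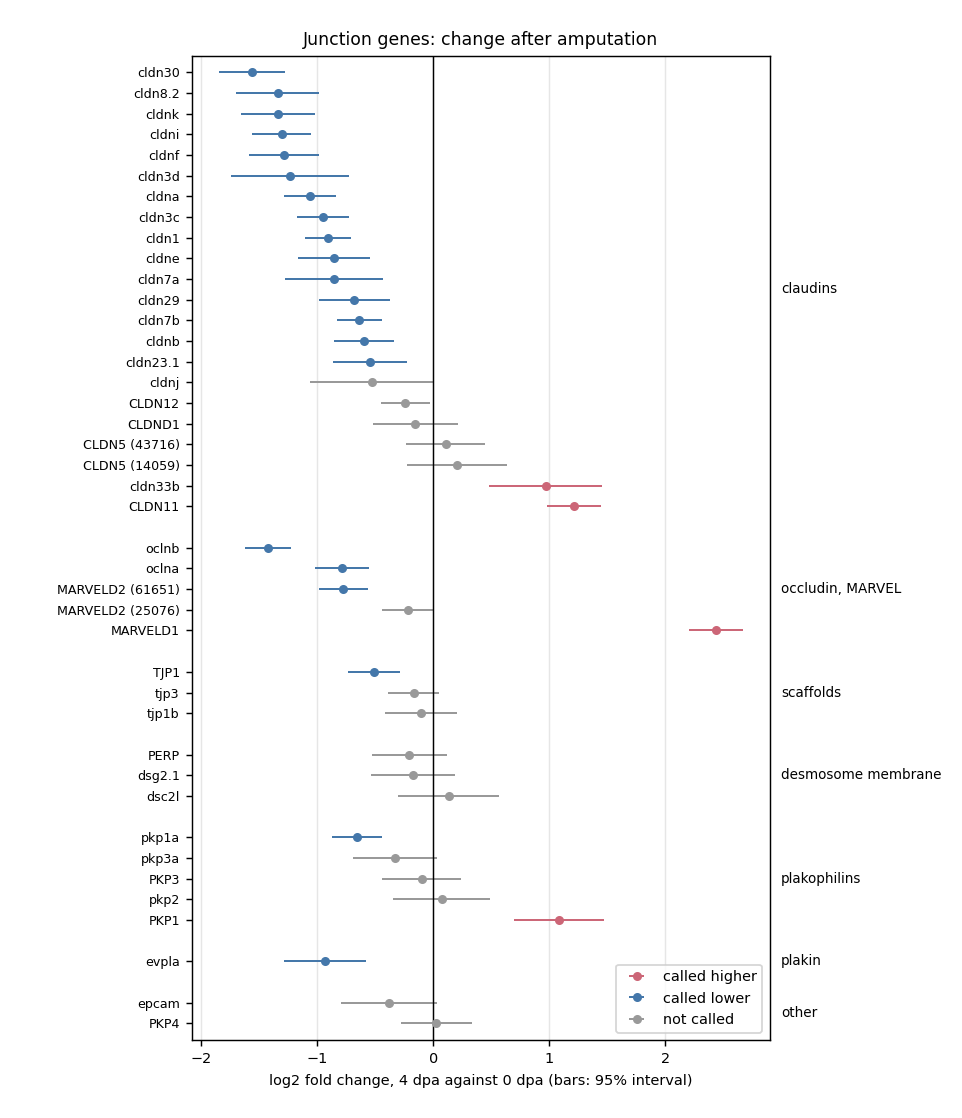
Log2 fold-change at 4 dpa against 0 dpa (x axis) for 41 of the 43 junction genes, in rows by role, with 3 libraries per day. Points are estimates and bars 95% intervals from the limma fit, coloured by call; most claudins lie left of 0, MARVELD1 lies farthest right at 2.44, and the 3 desmosome membrane genes all have intervals that cross 0. Digits after a repeated name are the end of the Ensembl identifier.

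**Figure D2:**
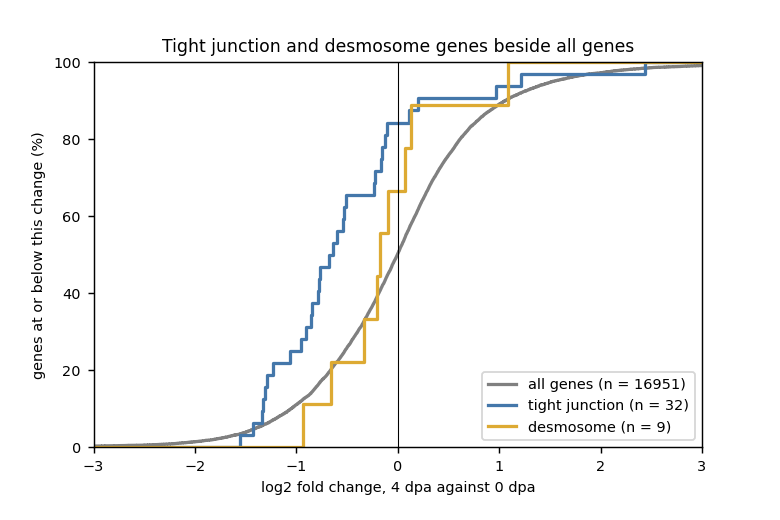
Share of genes (y axis, percent) with a log2 fold-change at or below the value on the x axis, for all 16951 genes and for the tight junction and desmosome genes. The tight junction curve is shifted left, with its median at −0.66, and the desmosome curve runs closer to that of all genes, with its median at −0.17.

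Claudins gave most of the falls. Of the 22 genes, 15 fell and 2 rose, beside 31.2% and 31% of all genes. Their median log2 fold-change was −0.76. This count includes CLDND1, a claudin domain gene more distant from the family, without which the median was −0.85 over 21. The largest fall on the log2 scale was that of cldn30 (ENSDARG00000069505), which measured 42.0, 47.6 and 46.1 CPM at 0 dpa and 13.1, 17.5 and 13.2 at 4 dpa. Every 4 dpa library lay below every 0 dpa library, with a 3.10-fold lower mean and a log2 fold-change of −1.56 (SE 0.12, adjusted p = 2.11e-05).

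The claudin with the most reads was cldni (ENSDARG00000054616), at 1418, 1828 and 1601 CPM at 0 dpa and 626, 699.6 and 600.1 at 4 dpa. Its days stood well apart, and the mean was 2.52-fold lower at 4 dpa, with a log2 fold-change of −1.31 (SE 0.11, adjusted p = 2.77e-05). For cldnb (ENSDARG00000009544), which labels the lateral line and skin epithelia of zebrafish larvae, the libraries gave 1023, 1354 and 1179.8 CPM at 0 dpa and 727, 761 and 820.1 CPM at 4 dpa. Its mean was 1.54-fold lower, with a log2 fold-change of −0.60 (SE 0.11, adjusted p = 0.00202), but that value was −0.31 with values scaled to total reads, and −0.22 under quantile normalization, where it missed the threshold (adjusted p = 0.0595). Levels of cldna (ENSDARG00000069888) were 833, 986 and 981 CPM at 0 dpa and 453, 463 and 403 CPM at 4 dpa, a 2.12-fold fall of the mean with no overlap between days (log2 fold-change −1.06, adjusted p = 4.22e-05).

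In mammals CLDN7 binds the adhesion protein EpCAM, and the zebrafish copy cldn7b (ENSDARG00000014047) had 594, 600.0 and 595 CPM at 0 dpa, the tightest triplet of the 5 claudins with the most reads, and 363, 414 and 361 CPM at 4 dpa. The 4 dpa libraries were all lower, by 1.57-fold on the mean (log2 fold-change −0.64, adjusted p = 2.81e-04). In cldne (ENSDARG00000043128), a claudin of the outer covering layer of the zebrafish embryo, the levels were 622, 539 and 491 CPM at 0 dpa and 324, 331 and 248 CPM at 4 dpa. It fell by 1.83-fold, again without overlap (log2 fold-change −0.85, adjusted p = 8.04e-04). Together these 5 genes held 85.6, 87.9 and 88.2% of the summed claudin CPM in the 0 dpa libraries and 86.4, 86.7 and 86.7% in the 4 dpa libraries. The mixture shifted within that total. Cldni held 27.0, 30.3 and 29.1% at 0 dpa and 21.7, 22.7 and 21.4% at 4 dpa, whereas cldnb went from 19.5, 22.4 and 21.5% to 25.2, 24.7 and 29.2%. Both shifts left the days without overlap and were described after their values were seen.

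Claudins with fewer reads fell too. Levels of cldn8.2 (ENSDARG00000040628), of a subfamily that tightens the barrier of the mammalian kidney tubule, were 172, 128 and 113 CPM at 0 dpa and 55.1, 55.7 and 46.7 CPM at 4 dpa. The 0 dpa libraries were spread more widely than the 4 dpa libraries but stayed above them (log2 fold-change −1.34, SE 0.16, adjusted p = 1.49e-04). For cldnf (ENSDARG00000043133) the values were 80.7, 73.8 and 67.9 CPM and 29.2, 34.8 and 24.8 CPM, 2.50-fold lower on the mean (log2 fold-change −1.29, adjusted p = 7.50e-05). Few reads came from cldn3d (ENSDARG00000015955), at 3.81, 5.75 and 6.58 CPM at 0 dpa and 1.48, 2.43 and 1.15 at 4 dpa. Its days did not overlap either, and the ratio of mean CPM was 3.19, with a log2 fold-change of −1.23 (SE 0.22, adjusted p = 0.00154). The other claudins that fell were cldn3c (−0.95), cldn1 (−0.91), whose loss breaks the skin barrier of mice, cldn7a (−0.85), cldn29 (−0.68) and cldn23.1 (−0.54), each a log2 fold-change. The call of cldn23.1 was lost when values were scaled to total reads (−0.26, adjusted p = 0.145).

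A different cell type is the usual home of cldnk (ENSDARG00000042357), a claudin of myelinating glia in zebrafish. It measured 14.2, 12.7 and 10.1 CPM at 0 dpa and 4.32, 3.98 and 4.25 CPM at 4 dpa, 2.95-fold lower on the mean (log2 fold-change −1.33, adjusted p = 8.29e-05). Of 8 Schwann cell marker genes, 6 fell, beside 31.2% of all genes. Among the 6 were the myelin genes mbpa (log2 fold-change −3.90) and plp1b (−3.22). The summed level of the 8 was 307 to 381 CPM at 0 dpa and 180.3 to 212 CPM at 4 dpa, with no marker at 0. Their part in the fall of cldnk was not tested.

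Against this trend, 2 claudins rose. CLDN11 (ENSDARG00000030723), whose mammalian counterpart forms the tight junctions of myelin and of Sertoli cells, measured 6.24, 5.71 and 6.24 CPM at 0 dpa and 15.5, 15.4 and 14.5 CPM at 4 dpa. The triplets were narrow and far apart, and the mean was 2.50-fold higher at 4 dpa (log2 fold-change 1.21, SE 0.10, adjusted p = 2.71e-05). For cldn33b (ENSDARG00000015964) the levels were 1.32, 2.92 and 1.66 CPM at 0 dpa and 3.66, 5.32 and 4.94 CPM at 4 dpa. The days did not overlap, and the ratio of means was 2.36 (log2 fold-change 0.97, SE 0.21, adjusted p = 0.00427).

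The remaining 5 claudins did not pass the test. Both copies of CLDN5, the claudin of the blood vessel wall and blood-brain barrier in mammals, were among them: ENSDARG00000014059 measured 17.2, 31.1 and 22.8 CPM at 0 dpa and 24.9, 29.2 and 25.0 CPM at 4 dpa, overlapping (log2 fold-change 0.20, 95% interval −0.23 to 0.64). It was called higher without 0 dpa replicate 2 (log2 fold-change 0.41, adjusted p = 0.0487) and with values scaled to total reads (0.48, adjusted p = 0.0397). The other copy, ENSDARG00000043716, gave 0.11 (95% interval −0.23 to 0.45). The endothelial marker list held 6 names, of which 4 were found. Of these 4 genes TIE1 (log2 fold-change 0.57) and FLI1 (1.11) rose, beside 31% of all genes. The others, pecam1a (0.17) and tek (0.20), did not pass. The summed level of the 4 was 25.5 to 36.6 CPM at 0 dpa and 41.9 to 49.4 CPM at 4 dpa. The part of these marker genes in the CLDN5 values was not tested. The other claudins that did not pass were CLDN12 (−0.24, adjusted p = 0.0529), cldnj (−0.53, adjusted p = 0.0772) and CLDND1 (−0.16, adjusted p = 0.42). CLDN12 was called lower with the deposited values unscaled, under quantile normalization and with limma-voom (adjusted p = 0.0325 to 0.0411). Over the 13 alternatives its log2 fold-change ran from −0.29 to 0.04. Without 4 dpa replicate 1, cldnj was called lower (−0.72, adjusted p = 0.0287).

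**Figure D3:**
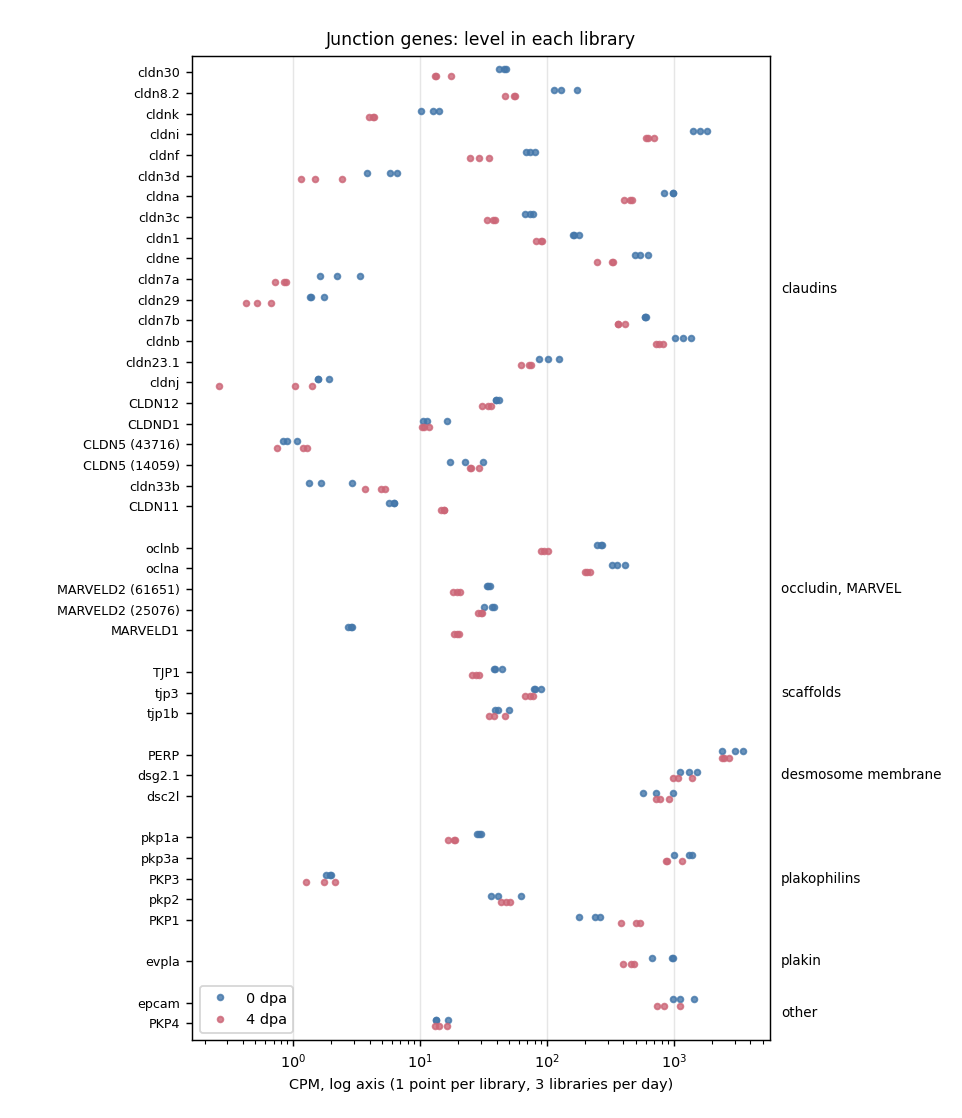
Level of 41 of the 43 junction genes in each library (CPM, log axis), with 1 point per library, 3 libraries at 0 dpa and 3 at 4 dpa, in rows by role. The days separate for most claudins and occludins, as for cldn30 at 45.3 and 14.6 CPM on average, and mix for the desmosome membrane genes. Digits after a repeated name are the end of the Ensembl identifier.

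Of 5 occludin and MARVEL domain genes, the other membrane proteins of the tight junction, 3 fell, 1 rose and 1 did not pass. Over all genes 31.2% fell and 31% rose. The occludin copy oclnb (ENSDARG00000003091) measured 267, 270.3 and 247 CPM at 0 dpa and 89.1, 102 and 95.4 CPM at 4 dpa. No library of a day came near the other day, and the mean was 2.73-fold lower (log2 fold-change −1.42, SE 0.09, adjusted p = 5.13e-06). Its copy oclna (ENSDARG00000005108) fell from 365 ± 42.1 to 207 ± 8.99 CPM (mean ± SD, n = 3 libraries per day), with a log2 fold-change of −0.79 (adjusted p = 2.58e-04). Of the copies of MARVELD2, which encodes tricellulin, ENSDARG00000061651 fell (−0.77, adjusted p = 1.69e-04) and ENSDARG00000025076 did not pass (−0.22, adjusted p = 0.0763). The latter was called lower under quantile normalization (adjusted p = 0.0484) and without 0 dpa replicate 3 (−0.29, adjusted p = 0.0352). Over the 13 alternatives its value ran from −0.29 to 0.06.

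The largest change of all 43 genes was the rise of MARVELD1 (ENSDARG00000011724). It encodes a MARVEL domain protein whose place in the tight junction is less settled than that of occludin and tricellulin. Its levels were 2.70, 2.92 and 2.88 CPM at 0 dpa and 19.5, 20.4 and 18.6 CPM at 4 dpa. The mean was 6.88-fold higher at 4 dpa, with narrow triplets on both days (log2 fold-change 2.44, SE 0.10, adjusted p = 1.03e-06).

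Among the zonula occludens scaffolds, TJP1 (zonula occludens 1, ENSDARG00000077506) fell from 40.3 ± 3.14 to 27.5 ± 1.72 CPM. Its log2 fold-change was −0.51 (SE 0.10, adjusted p = 0.00204), and it missed the threshold with values scaled to total reads (−0.23, adjusted p = 0.0572). Its copy tjp1b (−0.11, 95% interval −0.42 to 0.21) and tjp3 (−0.17, 95% interval −0.39 to 0.05) did not pass.

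Most desmosome genes missed the threshold, the 3 membrane genes among them. For the desmoglein dsg2.1 (ENSDARG00000076945) the libraries gave 1110.0, 1519.7 and 1314 CPM at 0 dpa and 1076, 985 and 1399 CPM at 4 dpa, overlapping, with a log2 fold-change of −0.17 (95% interval −0.54 to 0.19, adjusted p = 0.362). The desmocollin dsc2l (ENSDARG00000039677) had 566, 988 and 726 CPM at 0 dpa and 771, 727 and 921 CPM at 4 dpa. All its 4 dpa values lay inside the range of the 0 dpa values, and the log2 fold-change was 0.13 (95% interval −0.30 to 0.57, adjusted p = 0.557). PERP (ENSDARG00000063572), a membrane protein that mouse epidermis needs for desmosome assembly, measured 2406, 3523 and 3028 CPM at 0 dpa and 2461, 2405 and 2725 CPM at 4 dpa. The days overlapped through 0 dpa replicate 1 (log2 fold-change −0.20, 95% interval −0.52 to 0.12, adjusted p = 0.229). Without that library PERP was called lower (−0.34, adjusted p = 0.0252), but over the 13 alternatives its value ran up to 0.17.

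Plakophilins, the plaque proteins that cluster desmosomal cadherins, went different ways. PKP1 (ENSDARG00000052705), whose loss in humans gives fragile skin, measured 179, 239.9 and 263 CPM at 0 dpa and 538, 385 and 503 CPM at 4 dpa. The 4 dpa libraries were all higher, 2.09-fold on the mean (log2 fold-change 1.08, SE 0.17, adjusted p = 7.35e-04). The gene named pkp1a (ENSDARG00000090598) went the other way, with 28.2, 29.97 and 29.2 CPM at 0 dpa and 18.7, 16.6 and 18.4 CPM at 4 dpa. It fell by 1.63-fold without overlap (log2 fold-change −0.66, SE 0.09, adjusted p = 4.23e-04). The plakophilin 3 copy pkp3a (ENSDARG00000051861) had 999.8, 1392 and 1313 CPM at 0 dpa and 875, 869.6 and 1159 CPM at 4 dpa. It overlapped and did not pass (log2 fold-change −0.33, 95% interval −0.69 to 0.03, adjusted p = 0.0985). It was called lower without 0 dpa replicate 1 (−0.47, adjusted p = 0.0173) and without 4 dpa replicate 3 (−0.47, adjusted p = 0.0322). Over the 13 alternatives its value ran from −0.47 to 0.12. Neither pkp2 (0.07) nor the second plakophilin 3 copy, PKP3 (−0.10), passed.

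The plakin envoplakin links desmosomes and keratin to the cornified envelope in mammals. Its copy evpla (ENSDARG00000019808) measured 671, 989.5 and 967 CPM at 0 dpa and 399, 461 and 484 CPM at 4 dpa. It fell by 1.96-fold with no overlap (log2 fold-change −0.93, SE 0.15, adjusted p = 0.00102). It and pkp1a were the 2 desmosome genes that fell.

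Outside both classes, epcam (ENSDARG00000040534), a homophilic adhesion protein of epithelia, had 991, 1448 and 1114 CPM at 0 dpa and 739.9, 1121 and 835 CPM at 4 dpa. The days overlapped through 4 dpa replicate 2, and the gene did not pass (log2 fold-change −0.38, 95% interval −0.80 to 0.03, adjusted p = 0.0954). It was called lower without 0 dpa replicate 1 (−0.50, adjusted p = 0.0403) and without 4 dpa replicate 2 (−0.55, adjusted p = 0.0228). Over the 13 alternatives its log2 fold-change ran from −0.55 to 0.05, so its sign was not fixed. PKP4, a plakophilin relative found at adherens junctions too, gave 0.03 (95% interval −0.28 to 0.33).

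The classes were then set beside each other. The summed level of the 32 tight junction genes, which the genes with most reads dominate, was 6311, 7056 and 6443 CPM at 0 dpa and 3515, 3686 and 3434 CPM at 4 dpa. The days were far apart, 1.86-fold on the means. For the 9 desmosome genes the sums were 5998, 8746 and 7683 CPM at 0 dpa and 6188, 5894 and 7263 CPM at 4 dpa, which overlap, with a ratio of 1.16. The same ratio over all genes was 1.24, because the adjusted library sizes of the authors raise CPM at 0 dpa. The 0 dpa and 4 dpa values were fully separated in 25 tight junction genes that were lower and 3 that were higher at 4 dpa, and in 2 and 1 desmosome genes. Over all genes such separation was seen in 34.9% lower and 33.2% higher. Among the genes with a mean of at least 100 CPM, a level chosen after seeing the data, 8 of 8 tight junction genes fell. Of 6 desmosome genes at this level, 1 fell and 1 rose. The background at this level was 43.9% lower and 32.6% higher. Rows of DSP and JUP, which lay outside the naming rule and are given below, were not in these counts. The row of ppl was also left out, though the rule sought that name, because it had no name in the name table. It had means of 1760 CPM at 0 dpa and 882 CPM at 4 dpa, and was called lower. Its ratio of 2.00 is above the desmosome ratio of 1.16, which would be larger with it.

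Spread between the 0 dpa libraries is given beside these counts. The median coefficient of variation at 0 dpa was 10.4% for tight junction genes, 18.7% for desmosome genes and 12.2% for all genes. Replicate 1 was the lowest 0 dpa library for 8 of the 9 desmosome genes and for 12 of the 32 tight junction genes, against 41.6% of all genes. Without it, 4 desmosome genes rather than 2 were called lower, PERP and pkp3a being added. The number of tight junction genes called lower stayed at 20. The share of all genes called lower without this library is not given here, and 31.2% belongs to the fit with all libraries. The median of the desmosome genes turned positive under quantile normalization (0.12) and with values scaled to total reads (0.08), the latter a scaling that moved the median of all genes to 0.24. That of the tight junction genes stayed negative under every alternative, between −0.81 and −0.44.

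Among genes named as copies of the same gene, 7 pairs were chosen, not all that the names would give. The ratio of the copies was followed within each library, free of library scaling but for the added 1. The pair of PKP1 to pkp1a moved most, with log2 ratios at 0 dpa of 2.62, 2.96 and 3.13, and at 4 dpa of 4.77, 4.46 and 4.70. The days did not overlap, and the mean ratio rose by 1.74 on the log2 scale. This pair was singled out after its values were seen. The log2 ratio of oclna to oclnb was 0.62, 0.40 and 0.40 at 0 dpa and 1.27, 1.01 and 1.05 at 4 dpa, so the days were again apart, with a change of 0.63. The copies of MARVELD2 (change of −0.55) and TJP1 (−0.41) also separated the days, whereas those of plakophilin 3, cldn7 and CLDN5 overlapped on this scale. Each overlapping pair holds a copy with few reads. Means at 0 and 4 dpa were 1.92 and 1.71 CPM for PKP3 and 2.39 and 0.82 CPM for cldn7a. For CLDN5 ENSDARG00000043716 they were 0.94 and 1.07 CPM. The added 1 shrinks changes at such levels, so this overlap does not show a steady ratio. For each of the 4 pairs that separated, an exact permutation test (two-sided) gave p = 0.1, which with 3 libraries against 3 is the lowest it can reach, and 0.175 after Benjamini-Hochberg adjustment over the 7 pairs. This test can therefore pass no pair with 3 libraries a day, and no other test of the ratios was run. Reads of near-identical copies may have been shared between them in counting, and this was not checked.

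**Figure D4:**
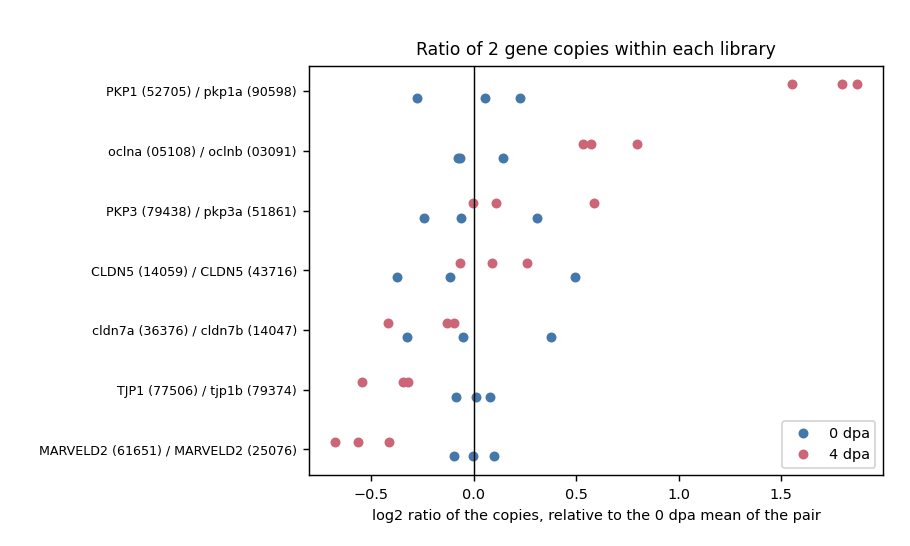
Log2 ratio of 2 gene copies within each library, drawn relative to the 0 dpa mean of the pair (x axis), for 7 pairs (rows), with 3 points per day. The 4 dpa points of PKP1 to pkp1a lie farthest right, 1.74 above the 0 dpa mean on average, and those of MARVELD2 and TJP1 lie left of every 0 dpa point. Digits in brackets are the end of the Ensembl identifier.

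Several of the genes are neighbours in the RefSeq gene table of zebrafish (assembly GRCz12tu, used here for gene order and not for positions). The run cldn3c, cldn3d, cldnb, cldn29, cldnd, cldn28 and cldn30 holds 5 of the genes measured, and all 5 fell, from −0.60 for cldnb to −1.56 for cldn30. The fall of cldn29 rested on few reads, with means of 1.49 CPM at 0 dpa and 0.54 CPM at 4 dpa. In the run cldnj, cldne, cldnf and cldna, 3 of 4 fell, and cldnj did not pass. Beside these counts, 15 of all 22 claudins and 31.2% of all genes fell, and a link of the falls to gene order was not tested. The desmosomal cadherins dsc2l and dsg2.1 are also neighbours, and neither passed. Similar sequences within these runs could have exchanged reads in counting, which was not checked.

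Other contact genes, from lists made with earlier results of these data known, did not all follow the claudins. For comparison, 31.2% of all genes fell and 31% rose. Among 22 further tight junction and polarity genes, 10 fell and 6 rose, with a median log2 fold-change of −0.19. The share that rose was near that of all genes. The Crumbs protein gene crb3b (−1.33), the cingulin gene cgnb (−1.19) and CXADR (−1.01), an adhesion receptor, fell most, and JAM3 (1.47), a junctional adhesion molecule also made by vessels and germ cells, rose most. The adherens junction list held 20 names, of which 11 were found. Of these 11 genes, 7 rose, led by the N-cadherin gene CDH2 (2.40) and the beta-catenin gene CTNNB1 (1.32). Among the 7, CTNNA2 and nectin3b had few reads, with 4 dpa means of 1.03 and 3.14 CPM. The 4 that fell were the vinculin gene VCL (−0.99), pvrl2l (−0.84), nectin4a (−0.76) and AFDN (−0.55). N-cadherin is made mostly by mesenchymal and neural cells. Of 9 hemidesmosome genes, which attach basal cells to the basement membrane, 3 fell and 2 rose. The share that fell, 33.3%, was near that of all genes. The copies of collagen XVII went in opposite directions (col17a1a −2.19, col17a1b 1.04). Rows with the human-style names DSP (desmoplakin) and JUP (plakoglobin) lay outside the naming rule. Of these, DSP ENSDARG00000076673 fell (−0.92), and DSP ENSDARG00000022309 (−0.08, 95% interval −0.47 to 0.30) and JUP (−0.18, 95% interval −0.43 to 0.06) did not pass.

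**Figure D5:**
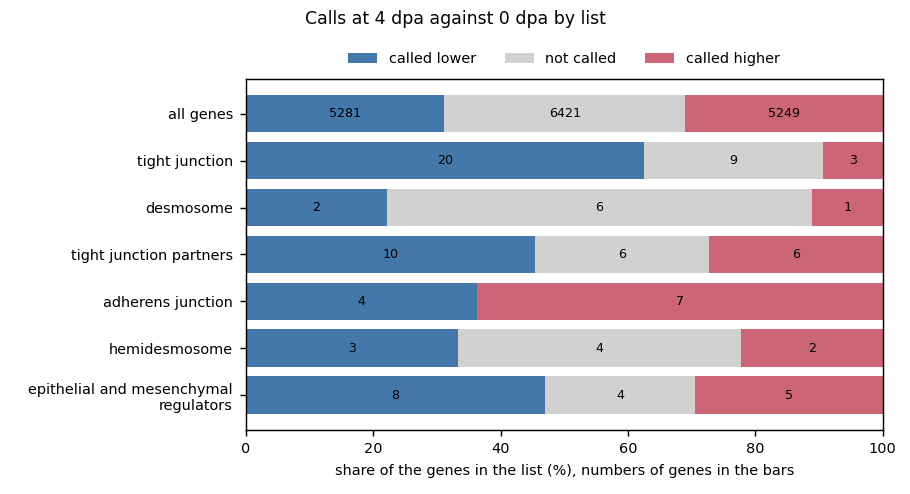
Share of genes called lower, not called or called higher at 4 dpa against 0 dpa (x axis, percent) in all genes, the tight junction and desmosome genes and 4 further lists, with numbers of genes in the bars. Tight junction genes show the largest share called lower of the lists drawn, 20 of 32, adherens junction genes have 7 of 11 called higher, and desmosome genes are mostly not called, 6 of 9.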

How the data were processed

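PolyA+ mRNA of zebrafish caudal fins was sequenced from 3 libraries at 0 dpa and 3 at 4 dpa. The authors deposited log2(CPM + 1) values of 16951 Ensembl genes, made with library sizes they adjusted; Zv9, Trimmomatic, RSEM and edgeR are named in the processing notes of the submitters, and the aligner and counter of these libraries are not given in the sources used here. Whole reads were recovered from the deposited log2 values in 100% of cells (tolerance 0.1 read). The libraries were strand-specific. Small RNA libraries were not used here. Libraries of a day differed by more than sampling noise (chi-square per gene of at least 14.0). The labels do not say that pools came from separate tanks or days, so p-values measure the spread between these pools.

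Each library was shifted on the log2 scale by its trimmed mean log ratio to the mean library (30% of log ratios and 5% of mean levels trimmed at each end), and values were fitted with limma 3.58.1 in R 4.3.3 (lmFit, and eBayes with trend), with day as the only term. Two-sided p-values were corrected over all 16951 genes (Benjamini-Hochberg), and 0.05 was the threshold. Levels printed are deposited CPM without the shift. On simulated data with these library sizes, 195 of 200 genes changed by 1 on the log2 scale were recovered and 10 of 16751 unchanged genes were called. The simulation changed only these 200 genes, equally in both directions and none at the lowest levels, with the same dispersion for every gene. In the real data 62.1% of genes were called, so these rates do not carry over to it. Copy ratios were compared by exact permutation tests (SciPy 1.17.1). Alternatives covered scaling, pseudocount, a filter at 1 CPM, limma-voom, the replicate block and each library left out.

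Gene names came from a table that matched 13664 of 16951 identifiers. Human-style names can stand for several copies, so identifiers are given. The junction genes and all lists were chosen with earlier results of these data known. Given in full are the rises and the 8 largest falls that passed with no overlap, the 5 tight junction and 5 desmosome genes with the most reads, and epcam; pkp1a was added after its values were seen. Lists of contact genes, regulators and cell type markers are given by counts. Some genes enter the counts but are not reported here by name.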

Additional observations from a re-analysis of the deposited data

How the results depend on the processing

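Of the 43 genes, 33 had the same call under all 13 alternatives, 6 of which left out a library. Some genes that were not called changed sign between alternatives, dsg2.1 (−0.32 to 0.33) among them. Leaving out a library added 8 calls and lost 0, and the number of desmosome genes called lower ranged from 2 to 4. The other alternatives added 8 calls and lost 3, and no called gene changed direction. The median of the tight junction genes moved to −0.44 with values scaled to total reads, to −0.78 with a pseudocount of 0.25 CPM and to −0.81 with limma-voom on the recovered reads. Scaling to total reads moved the median of all genes to 0.24, and relative to it the tight junction median was −0.67 and the desmosome median −0.16. Over all genes 9098 to 11113 were called. Replicate numbers were not shown to pair the libraries: the correlations of same-numbered deviations were 0.17, −0.01 and 0.15. With the replicate number as a block, 10486 genes were called in all, and of the junction genes 4 higher and 25 lower, pkp3a, epcam and cldnj being added. With 3 pools of fins a day, the spread between pools limits the size of change that can be called.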

Other observations

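Genes that regulate epithelial identity were looked at beside the junction genes, from a list chosen with earlier results of these data known. Of 17 genes, 8 fell and 5 rose at 4 dpa, beside 31.2% lower and 31% higher over all genes, so the share that rose was near that of all genes. Those that fell were the Grainyhead-like factors GRHL1 (log2 fold-change −0.67), grhl2a (−0.75), GRHL2 (−0.49) and grhl3 (−0.48), which activate junction genes in mammalian epithelia, ovol1a (−0.90) and ovol1b (−0.50), and the splicing factors ESRP1 (−0.49) and ESRP2 (−0.52). Those that rose were snai1a (1.72), snai1b (1.57), snai2 (1.17), twist1a (1.56) and twist1b (1.34), repressors of epithelial genes or factors of mesenchymal cells. Among them snai1b and twist1b had few reads, with 0 dpa means of 0.16 and 1.33 CPM and 4 dpa means of 2.43 and 4.81 CPM. KLF4, ZEB1, zeb2a and TP63 did not pass the test. Whether these changes took place in the cells that express the junction genes was not tested.

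A few rows had no junction gene name in the name table. Their names were taken from gene lists of the study that hold strongly changed genes. For that reason these rows were kept out of every count. They are ENSDARG00000037898 (ppl, periplakin), with a log2 fold-change of −0.95 (adjusted p = 0.00168), ENSDARG00000026011 (marveld3), with −0.74 (adjusted p = 3.14e-04), and ENSDARG00000037528 (also MARVELD3), with −0.89 (adjusted p = 0.00155).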
